A study of Saccharomyces cerevisiae with 4 samples.

Results

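The ATG genes encode the machinery of autophagy in baker's yeast, and all 36 that were asked for, ATG1 to ATG5, VPS30 (also called ATG6), ATG7 to ATG23, ATG26, ATG27, ATG29, ATG31 to ATG34, ATG36 and ATG38 to ATG42, were found among the 6209 genes of the count table. They were found by gene identifier. The RNA came from BY4741, a haploid laboratory strain of Saccharomyces cerevisiae with the genotype MATa his3 leu2 met15 ura3, which was the same in both groups. Cells in YPD medium at 28 °C either received 3 µg/mL thiolutin for 3 h or were left untreated, and 2 libraries of each group were analysed. Thiolutin is a disulfide-containing antibiotic that blocks RNA synthesis and binds metal ions. The labels place the cells in exponential growth while the methods of the study describe overnight cultures, and the submitters' notes give 3 replicates per condition.

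In autophagy, a double membrane grows around a portion of cytoplasm, closes to an autophagosome and fuses with the vacuole, where the content is degraded. The Atg1 kinase complex starts the process, Atg9 vesicles and a phosphatidylinositol 3-kinase complex supply membrane and lipid signals, and a pair of ubiquitin-like conjugation systems attach Atg8 to the growing membrane. Receptor proteins bring selected cargo, such as mitochondria or vacuolar enzymes, to Atg8. In yeast, ATG8 and several other ATG genes are known to be kept low in rich medium and to be transcribed more strongly under nitrogen starvation.

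The libraries held 17038991 and 21440741 counted reads from thiolutin cells, against 30205335 and 29962621 from untreated cells. The 20 most counted genes took 32.1% and 31.6% of the reads in the thiolutin libraries and 17.2% and 15.3% in the untreated libraries. Levels are therefore given as normalized counts on the TMM scale, which sets library size without the most extreme genes. On total counts in its place, the median over the 5937 genes tested moved by -0.59 on the log2 scale, so that a gene of constant TMM level appears lower on that scale. Beyond sampling noise, the coefficient of variation was 2.28% in the thiolutin pair and 16.7% in the untreated pair. The 7 genes specific to mating type a were all expressed and summed to 22087 and 22334 normalized counts in thiolutin cells, against 53845 and 41387 in untreated cells, with 6 lower and MFA1 not passing. The 4 genes specific to mating type alpha summed to 1108 and 1089 in thiolutin cells and 1219 and 1159 in untreated cells. Most of it was SAG1, and none was at 0. SAG1 was lower (log2 fold change -0.36), and STE3 (0.59) and MF(ALPHA)2 (0.64) did not pass. MF(ALPHA)1 was higher (1.68), with 30.4 and 21.0 normalized counts in thiolutin cells and 9.98 and 5.70 in untreated cells. HIS3 had 962 and 1050.2 normalized counts in thiolutin cells and 2274 and 1551 in untreated cells. The genotype carries his3, and how much of the gene that allele leaves was not examined. LEU2, MET17 and URA3 were looked for and were not found among the genes of the count table. In bulk RNA, fewer cells with a transcript and less RNA per cell cannot be told apart. Both scales give levels relative to the other transcripts of a library, so higher and lower are meant in that sense. A change in total RNA per cell was not measured. The study states that thiolutin also interferes with how mRNA is degraded, and such levels reflect both synthesis and decay.

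All 36 ATG genes passed the filter on low counts, with raw counts from 125 to 35366. Thiolutin cells had higher transcript levels of 5 ATG genes and lower levels of 15, and the other 16 did not pass the test (edgeR quasi-likelihood test, Benjamini-Hochberg adjusted p under 0.05 over all genes tested). Among all genes tested, 31.2% were higher and 32.4% were lower by the same rule. The difference between the ATG genes and the table was not tested. All 5 higher genes and 6 of the 15 lower genes changed by a log2 of at least 1, where the shares among all genes were 15.7% higher and 10.3% lower. The higher genes were ATG41, ATG10, ATG8, ATG1 and ATG38. The median log2 fold change was -0.25 over the ATG genes, against -0.04 for the whole table. Both thiolutin libraries lay above both untreated libraries for 8 ATG genes and below them for 20, while 40.8% and 43.9% of all genes tested were separated in these directions. On total counts, 5 ATG genes were higher and 28 lower, beside 16.3% and 60.7% of all genes (77.0% in either direction). By a log2 of at least 1, 2 were then higher and 14 lower, beside 8.25% and 31.4% of all genes. Without thiolutin replicate 2 the count of lower ATG genes was 9, where 15.8% of all genes tested were lower, and without untreated replicate 1 the count of higher ones was 8, where 40.9% of all genes were higher. With 2 libraries per group, each p rests on a spread shared across genes.

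**Figure D1:**
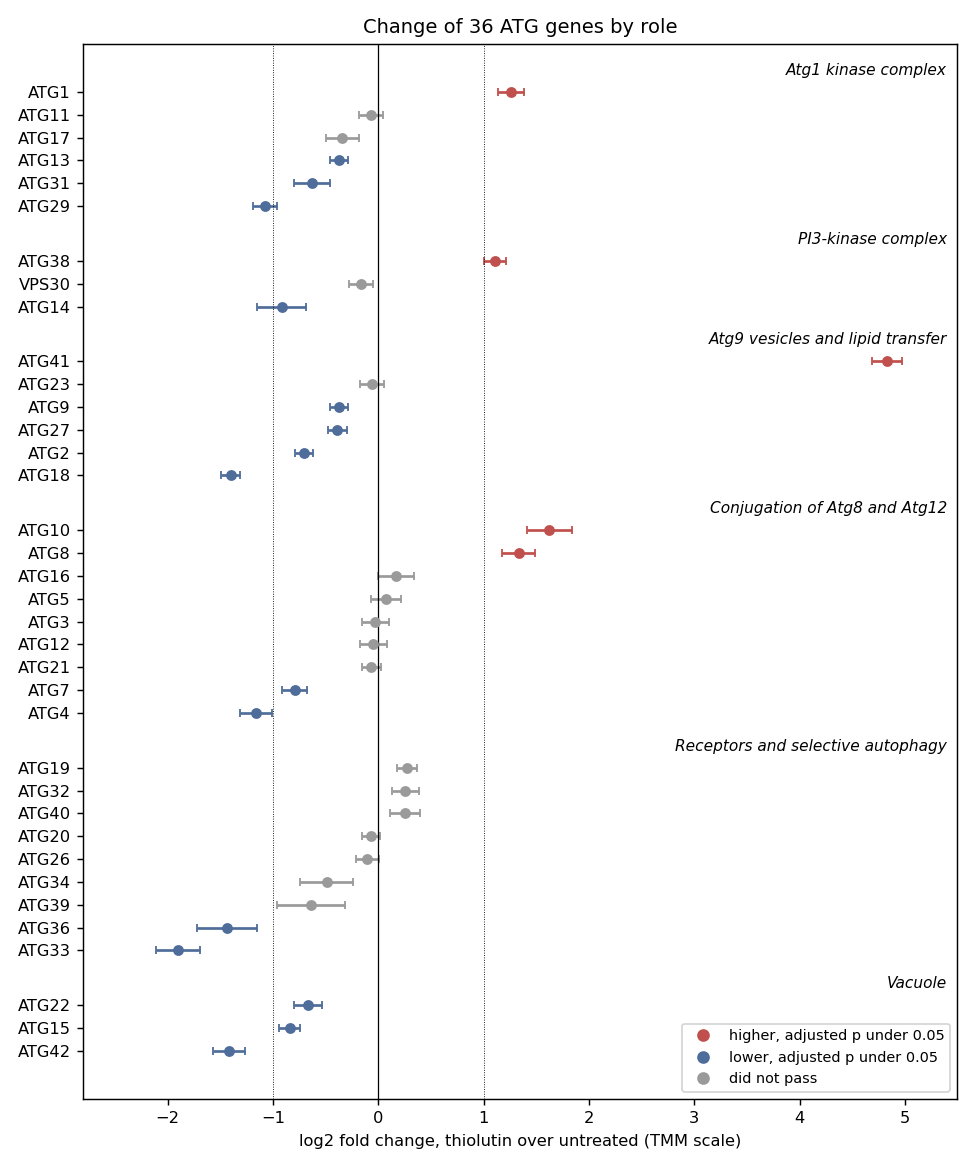
Log2 fold change of each of the 36 ATG genes, thiolutin over untreated, on the TMM scale, grouped by role. Points are edgeR estimates from 2 libraries per group, bars are 1 standard error, dotted lines mark a log2 change of 1 in either direction, and colours separate the 5 higher, 15 lower and 16 other genes. ATG41 stands far to the right at 4.83, and ATG33 is lowest at -1.90.

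ATG41 changed the most. This gene encodes a protein that binds Atg9 and sets the rate at which autophagosomes form. Its expression is known to depend on the activator Gcn4, and its other regulators were not reviewed here. It is YPL250C, a single exon at bases 74309 to 74719 of the minus strand of chromosome XVI in build R64. Thiolutin cells had 50521 and 53061 normalized counts, against 1663 and 1978 in untreated cells. The library pairs were far apart and close within themselves. The log2 fold change was 4.83 (SE 0.14, edgeR adjusted p = 6.87e-05), which is 28.4-fold, and 4.24 on total counts. It ranked 29 among the 5937 genes tested by increase. Per kb of coding length, ATG41 ranked 36 of 5815 genes by level in thiolutin cells and 848 in untreated cells. ICY1, the paralog of ATG41, had 2186 and 2323 normalized counts in thiolutin cells against 2489 and 1541 in untreated cells, groups that overlapped (log2 fold change 0.16, SE 0.23, edgeR adjusted p = 0.568). ICY1 was chosen after its values were seen.

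ATG41 also decided how many reads the ATG genes held as a group. The 36 genes took 0.281% and 0.293% of all counted reads in thiolutin libraries and 0.248% and 0.226% in untreated libraries. Without ATG41, the other 35 took 0.125% and 0.128% in thiolutin libraries against 0.241% and 0.217% in untreated libraries. ATG41 alone made up 55.5% and 56.3% of the ATG reads in thiolutin cells and 3.11% and 4.10% in untreated cells. These shares are of total reads and carry the shift of scale given above.

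**Figure D2:**
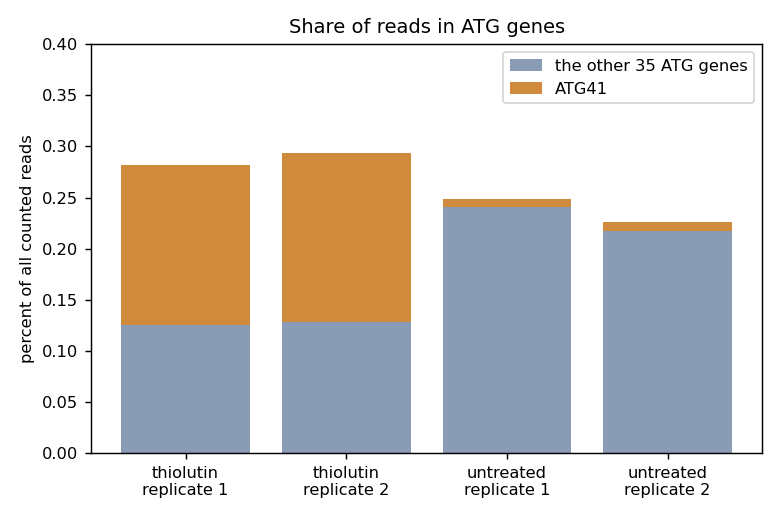
Share of all counted reads that fell in ATG genes, in percent, for each library, with ATG41 stacked on the other 35 genes. The full bars reach 0.281% and 0.293% in the thiolutin libraries and 0.248% and 0.226% in the untreated libraries, and the part without ATG41 is lower in both thiolutin libraries.

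The other 4 higher genes act at different steps. ATG8 encodes the ubiquitin-like protein that is joined to lipid on the growing membrane, and lies at bases 80378 to 80731 of the minus strand of chromosome II (YBL078C). It had 3868 and 3928 normalized counts in thiolutin cells, against 1770 and 1326 in untreated cells, a log2 fold change of 1.33 (SE 0.16, edgeR adjusted p = 0.00158). ATG1 encodes the kinase that starts autophagy (YGL180W, chromosome VII, bases 160065 to 162758, plus strand). It had 2025 and 2142 normalized counts in thiolutin cells and 783 and 958 in untreated cells (log2 fold change 1.26, SE 0.13, edgeR adjusted p = 0.000977). For both genes, the libraries of the 2 groups were well separated.

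ATG10 encodes the E2 enzyme that conjugates Atg12 to Atg5 (YLL042C, chromosome XII, bases 52087 to 52590, minus strand). Its counts were the lowest of the higher genes, with 383 and 363 in thiolutin cells and 142 and 99.8 in untreated cells (log2 fold change 1.63, SE 0.22, edgeR adjusted p = 0.00229). ATG38 encodes the protein that links Vps15 and Vps34 to Atg14 and Vps30 in the kinase complex (YLR211C). It had 987 and 1034 normalized counts in thiolutin cells and 484 and 455 in untreated cells (log2 fold change 1.11, SE 0.10, edgeR adjusted p = 0.000799). ATG38 has 2 exons on the minus strand of chromosome XII in R64, bases 564514 to 564531 and 563792 to 564454, and the count table lists only the first as its coordinates. The remaining 35 members have a single exon. On total counts, the log2 fold changes were 1.04 for ATG10, 0.74 for ATG8, 0.67 for ATG1 and 0.52 for ATG38, all still past the test.

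Upstream DNA is shown for 4 higher genes and for ATG42 and ATG29, lower genes described further on, because it was searched for short regulatory words. The stretch is bases 250 to 51 before the start codon, read 5′ to 3′ on the strand of the gene, from the R64 genome. It lies at chrXVI:74770-74969 for ATG41, chrII:80782-80981 for ATG8, chrVII:159815-160014 for ATG1, chrXII:564582-564781 for ATG38, chrII:515414-515613 for ATG42 and chrXVI:237088-237287 for ATG29. ATG41, ATG8 and ATG38 are read from the minus strand, and capitals mark matches to the words searched.
ATG41: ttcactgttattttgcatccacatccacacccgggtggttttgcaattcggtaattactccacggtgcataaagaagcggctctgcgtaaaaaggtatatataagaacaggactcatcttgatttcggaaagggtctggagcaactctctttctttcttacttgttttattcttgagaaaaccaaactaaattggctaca
ATG8: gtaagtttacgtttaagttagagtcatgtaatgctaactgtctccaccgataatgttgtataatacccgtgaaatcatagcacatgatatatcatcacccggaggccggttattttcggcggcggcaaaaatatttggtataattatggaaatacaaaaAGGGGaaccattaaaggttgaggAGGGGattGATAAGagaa
ATG1: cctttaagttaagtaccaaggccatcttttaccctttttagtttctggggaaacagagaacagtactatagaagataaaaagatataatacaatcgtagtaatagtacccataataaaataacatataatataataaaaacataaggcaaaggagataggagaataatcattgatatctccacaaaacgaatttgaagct
ATG38: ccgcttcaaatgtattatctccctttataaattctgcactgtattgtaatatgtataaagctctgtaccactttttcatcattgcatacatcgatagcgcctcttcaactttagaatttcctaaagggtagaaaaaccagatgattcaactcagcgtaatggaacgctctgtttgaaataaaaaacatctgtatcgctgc
ATG42: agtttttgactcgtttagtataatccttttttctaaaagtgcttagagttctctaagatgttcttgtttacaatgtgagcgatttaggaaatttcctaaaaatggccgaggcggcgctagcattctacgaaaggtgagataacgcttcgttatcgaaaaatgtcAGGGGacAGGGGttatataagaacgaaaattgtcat
ATG29: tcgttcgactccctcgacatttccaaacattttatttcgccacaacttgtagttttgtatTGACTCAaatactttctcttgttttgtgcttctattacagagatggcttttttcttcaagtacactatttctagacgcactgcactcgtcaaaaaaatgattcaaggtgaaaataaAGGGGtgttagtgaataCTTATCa

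The search covered 300 bases before the start codon of 5889 genes, on both strands, for 8 words. AGGGG, the stress response element that Msn2, Msn4, Gis1 and Rph1 bind, occurred upstream of 11 of the 36 ATG genes and in 22.3% of all windows. Of the ATG genes called, 2 higher and 3 lower ones had it. ATG8 has it at 91 to 87 and at 68 to 64 bases before its start codon, and ATG42 at 86 to 82 and at 79 to 75. GATAAG, which GATA factors such as Gln3 and Gat1 bind, occurred before 12 ATG genes and in 14.7% of all windows. It preceded 1 higher gene, ATG8, and 7 lower genes.

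The other words were rare among the ATG genes. TGACTCA, the Gcn4 element, was found before ATG29 alone, at 190 to 184 bases, and in 2.67% of all windows. TTACTAA, the Yap1 element, was found before ATG18 alone and in 7.93% of windows. The Zap1 element (ACCTT, any base, AAGGT, in 0.102% of windows), TAGCCGCC (Ume6, 1.34%), the heat shock element (GAA, TTC and GAA, each 2 bases apart, 0.883%) and GGTGGCAAA (proteasome element, 1.22%) had no match upstream of an ATG gene. ATG41, ATG1 and ATG38 held none of the 8 words in this window. Only exact matches were counted, and looser forms of a word were not searched. The printed ATG8 stretch holds ggcggc, a part of GGCGGCTA, which is the Ume6 word read on the other strand. A match is a description of the letters and no measure of binding.

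Of the Atg1 kinase complex, 1 gene was higher, 3 were lower and 2 did not pass, with a median log2 fold change of -0.36. ATG13 encodes the regulatory partner of Atg1 and lies at bases 907218 to 909434 of the plus strand of chromosome XVI (YPR185W). It had 2349 and 2345 normalized counts in thiolutin cells, against 2978 and 3112 in untreated cells (log2 fold change -0.38, SE 0.08, edgeR adjusted p = 0.0138). ATG29 and ATG31 encode scaffold proteins that work with Atg17. ATG29 had 296 and 300.1 normalized counts in thiolutin cells and 614 and 641 in untreated cells (log2 fold change -1.07, SE 0.11, edgeR adjusted p = 0.00119), and ATG31 fell by 0.63 on the log2 scale. ATG13 and ATG31 were not called without thiolutin replicate 1 (edgeR adjusted p = 0.193 and 0.0971) or without thiolutin replicate 2 (0.201 and 0.152). ATG29 (YPL166W, chromosome XVI, bases 237338 to 237979, plus strand) shares 24 bases with SET6 on the other strand, which had a log2 fold change of -0.98, and whether counting used the strand is not given. The genes that did not pass were ATG17, at -0.34, and ATG11, the scaffold of selective autophagy, at -0.07.

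The PI3-kinase complex genes had 1 gene higher, ATG38, 1 lower and 1 that did not pass. ATG14, which directs the kinase to the site of autophagosome formation, had 338 and 267 normalized counts in thiolutin cells and 676 and 464 in untreated cells (log2 fold change -0.92, SE 0.24, edgeR adjusted p = 0.0212), and was not called without thiolutin replicate 2 (0.112). VPS30, its partner, had a log2 fold change of -0.16 and did not pass.

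Among genes of Atg9 vesicles and lipid transfer, ATG41 was higher, 4 genes were lower and ATG23, at -0.06, did not pass. ATG9 encodes the membrane protein that seeds the autophagosome (YDL149W, chromosome IV, bases 184925 to 187918, plus strand). It had 1053 and 1034 normalized counts in thiolutin cells and 1323 and 1383 in untreated cells (log2 fold change -0.38, SE 0.09, edgeR adjusted p = 0.0156). ATG18 encodes a phosphoinositide-binding protein that works with Atg2 (YFR021W, chromosome VI, bases 194812 to 196314, plus strand). It had 649 and 677 normalized counts in thiolutin cells, against 1782 and 1718 in untreated cells (log2 fold change -1.40, SE 0.09, edgeR adjusted p = 0.000326). ATG2, the lipid transfer protein, fell by 0.70 and ATG27, a partner of Atg9 in trafficking, fell by 0.39 on the log2 scale. ATG9 and ATG27 were not called without thiolutin replicate 1 (edgeR adjusted p = 0.162 and 0.196) or without thiolutin replicate 2 (0.193 and 0.143).

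Of the 9 conjugation genes, ATG8 and ATG10 were higher, 2 were lower and 5 did not pass. ATG4 encodes the protease that trims Atg8 and releases it from lipid (YNL223W, chromosome XIV, bases 227370 to 228854, plus strand). It had 446 and 543 normalized counts in thiolutin cells and 1206 and 1016 in untreated cells (log2 fold change -1.16, SE 0.15, edgeR adjusted p = 0.00221). ATG7, the E1 enzyme of both conjugation systems, fell by 0.80 on the log2 scale. Those that did not pass lay close to zero. They were ATG16 at 0.17, ATG5 at 0.07, ATG3, the E2 for Atg8, at -0.03, ATG12 at -0.05 and ATG21 at -0.07.

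None of the 9 receptor and selective autophagy genes was higher at this threshold, 2 were lower and 7 did not pass. ATG33, a mitochondrial outer membrane protein of mitophagy, had the lowest log2 fold change of all ATG genes (YLR356W, chromosome XII, bases 840321 to 840914, plus strand). It had 516 and 540 normalized counts in thiolutin cells and 2358 and 1595 in untreated cells (log2 fold change -1.90, SE 0.21, edgeR adjusted p = 0.00131), and ranked 106 from the lowest among all genes tested. SCM4, its paralog, was chosen after its values were seen and had 393 and 405 normalized counts in thiolutin cells and 1392 and 1191 in untreated cells (log2 fold change -1.69, SE 0.12, edgeR adjusted p = 0.000443). ATG36, the receptor that binds Pex3 on peroxisomes, had 237 and 207 normalized counts in thiolutin cells and 751 and 448 in untreated cells (YJL185C, chromosome X, bases 82095 to 82976, minus strand; log2 fold change -1.44, SE 0.29, edgeR adjusted p = 0.00902).

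Receptor genes that did not pass differed in how far their libraries were spread. ATG19, the receptor of the Cvt pathway that delivers aminopeptidase to the vacuole, had 4389 and 4521 normalized counts in thiolutin cells and 3844 and 3525 in untreated cells, a log2 fold change of 0.27 just short of the threshold (edgeR adjusted p = 0.0513, 0.0373 with the size factors of DESeq2, and a log2 fold change of -0.31 on total counts). ATG34, its paralog, had 816 and 924 in thiolutin cells and 1517 and 932 in untreated cells (-0.49). ATG39, the receptor for nuclear envelope, had 370.1 and 384 in thiolutin cells and 769.7 and 405 in untreated cells (-0.64). For ATG34 and ATG39, untreated replicate 2 lay near the thiolutin libraries and replicate 1 well above. In 26 of the 36 ATG genes untreated replicate 1 was above replicate 2, and in ATG34, ATG36 and ATG39 by at least 1.5 times. ATG32 (mitophagy, 0.26), ATG40 (endoplasmic reticulum, 0.25), ATG20 (sorting nexin, -0.07) and ATG26 (sterol glucosyltransferase, -0.10) did not pass, and on total counts ATG32 and ATG40 had negative values of -0.33 and -0.34.

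All 3 vacuole genes were lower. ATG42 encodes a vacuolar carboxypeptidase (YBR139W, chromosome II, bases 515664 to 517190, plus strand). It had 2710 and 2692 normalized counts in thiolutin cells and 8166 and 6241 in untreated cells (log2 fold change -1.42, SE 0.15, edgeR adjusted p = 0.00121). Per kb of coding length it held the first rank of the ATG genes in untreated cells and rank 5 in thiolutin cells. ATG15, the vacuolar lipase that breaks down autophagic bodies, fell by 0.84 and ATG22, an exporter of amino acids from the vacuole, fell by 0.67 on the log2 scale. ATG22 was not called without thiolutin replicate 1 (edgeR adjusted p = 0.0726) or replicate 2 (0.0717).

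**Figure D3:**
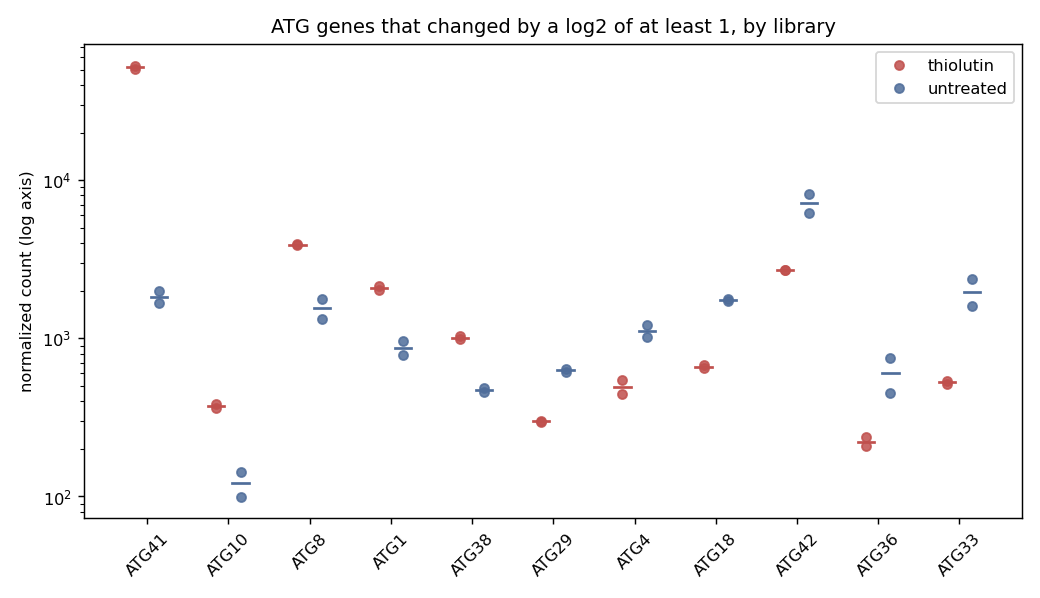
Normalized count in each library, on a log axis, for the 11 ATG genes that changed by a log2 of at least 1, with thiolutin left of untreated and a short line at each mean of 2 libraries. The libraries of the 2 groups are separated in all 11 genes, which were picked for their change, and the thiolutin points of ATG41 sit at 50521 and 53061.

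The order of levels among ATG genes is given as CPM, reads scaled to library size, per kb of coding length. In thiolutin cells the highest means were ATG41 (4792), ATG8 (419), ATG19 (136), ATG27 (84.2) and ATG42 (67.3). In untreated cells they were ATG42 (179), ATG41 (168), ATG8 (166), ATG33 (127), ATG19 (112) and ATG27 (110.2). The thiolutin libraries of those 5 genes did not overlap, whereas each of the 6 genes of the untreated order overlapped with its neighbour there. ATG10 had rank 16 in thiolutin cells and the lowest mean of all 36 in untreated cells, where its libraries overlapped with those of ATG11.

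Since partners moved apart, ratios within a library were set side by side. The pairs were chosen after the values were seen and carry no test, and a ratio does not depend on how libraries are scaled. ATG1 over ATG13, per kb, was 0.709 and 0.752 in thiolutin libraries and 0.216 and 0.253 in untreated libraries. ATG38 over ATG14 was 4.44 and 5.88 in thiolutin libraries against 1.09 and 1.49 in untreated libraries. ATG8 over ATG4 was 36.4 and 30.3 in thiolutin libraries against 6.16 and 5.47 in untreated libraries. The enzymes of conjugation differed likewise, with ATG10 over ATG7 at 2.34 and 1.90 in thiolutin libraries against 0.460 and 0.323 in untreated libraries. ATG8 over ATG3 was 7.83 and 8.59 in thiolutin libraries against 3.32 and 3.04 in untreated libraries. In all 5 pairs the thiolutin libraries were above the untreated ones. This follows from the choice, since each pair sets a higher gene over one that was lower or did not pass. Other pairs were computed and are not shown.

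**Figure D4:**
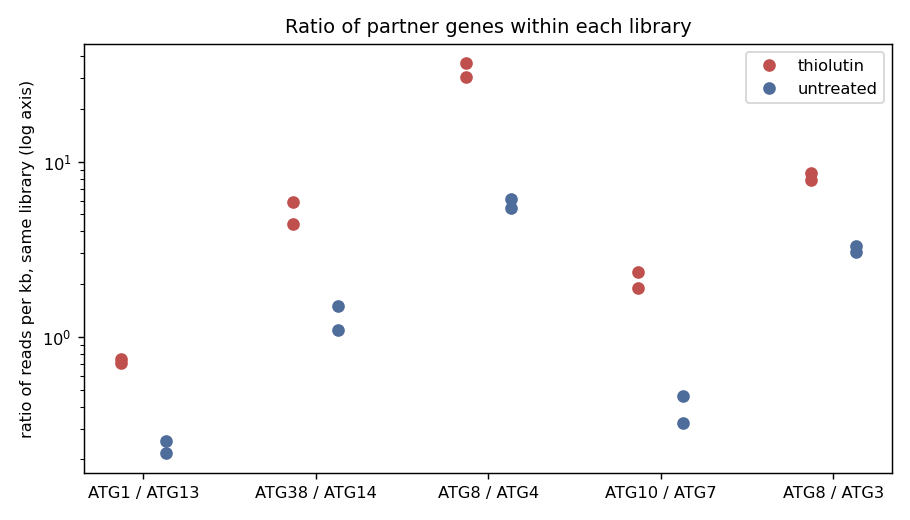
Ratio of reads per kb between partner genes within 1 library, on a log axis, for ATG1 over ATG13, ATG38 over ATG14, ATG8 over ATG4, ATG10 over ATG7 and ATG8 over ATG3. Points are single libraries, thiolutin left of untreated, and the thiolutin points lie higher in each pair.

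Genes that act with the ATG proteins were taken from a list of 51, and 13 were higher, 19 lower and 19 did not pass, with a median log2 fold change of -0.18, where 31.2% of all genes tested were higher and 32.4% lower. On total counts 4 were higher and 38 lower, where 16.3% of all genes tested were higher and 60.7% lower. The lists were written with earlier results of these data known. ZAP1, the activator of genes used under zinc deficiency, was listed among the regulators known to act on ATG genes. ZAP1 had 2632 and 2741 normalized counts in thiolutin cells and 468 and 525 in untreated cells (log2 fold change 2.44, SE 0.10, edgeR adjusted p = 0.000124). The other named increases were BRE5, a cofactor of the deubiquitinase Ubp3, at 1.31, HRR25, a kinase of receptor proteins, at 1.19, MON1, which activates the fusion GTPase Ypt7, at 1.00, and VPS41 of the HOPS tethering complex, at 0.74. On total counts ZAP1, BRE5, HRR25 and MON1 were higher and VPS41 was not.

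The largest decreases among them were in GIS1 and RPH1, repressors known to bind AGGGG. RPH1, which holds ATG genes down in rich medium, had 877 and 894 normalized counts in thiolutin cells and 2378 and 2056 in untreated cells (log2 fold change -1.32, SE 0.11, edgeR adjusted p = 0.000545). GIS1 had 1154 and 1187 in thiolutin cells and 2956 and 3058 in untreated cells (-1.36). Of the 10 transcription regulators in the list, 3 were higher, 3 lower and 4 did not pass, near the 31.2% and 32.4% of all genes tested. VPS34, the kinase of the PI3-kinase complex, had 733 and 773 in thiolutin cells and 1694 and 1839 in untreated cells (log2 fold change -1.23, SE 0.10, edgeR adjusted p = 0.00052). DNM1, of mitochondrial fission, fell by 1.27 and VAC8, the vacuolar partner of Atg13, fell by 1.11 on the log2 scale. GCN4, chosen after its values were seen because ATG41 is known to depend on it, had 17645 and 17763 normalized counts in thiolutin cells and 17742 and 18890 in untreated cells and did not pass (-0.05). An RNA level is no measure of Gcn4 protein or its activity, and neither was measured here.

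**Figure D5:**
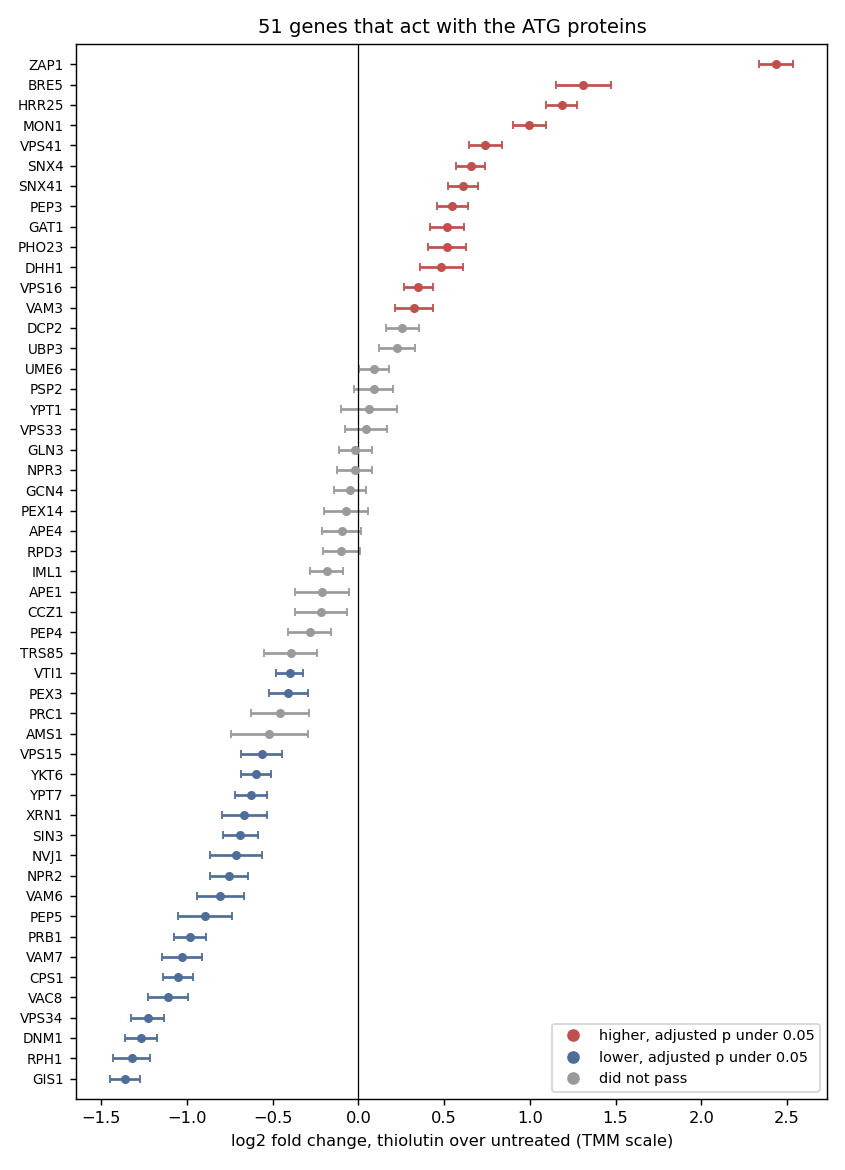
Log2 fold change of 51 genes that act with the ATG proteins, thiolutin over untreated on the TMM scale, with 1 standard error and the same colours as for the ATG genes. ZAP1 is highest at 2.44 and GIS1 lowest at -1.36.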

How the data were processed

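Poly(A)-selected RNA of 2 thiolutin and 2 untreated cultures was sequenced from both ends. The deposited count values are whole reads per gene on genome build R64, made by the authors with no normalization. The sources used here do not name the aligner or the counting program, nor say how strand and reads with several matches were treated. The table also holds the authors' normalized values, fold changes and p-values from DESeq2, and none of these was used. Of 6212 rows, 3 name no gene and were left out, with 6206 of the 6209 genes paired with the R64 annotation and 5886 at the same start and end there.

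Counts were filtered with filterByExpr of edgeR 4.0.16, scaled by TMM (factors 0.813 and 0.817 for thiolutin, 1.22 and 1.23 for untreated libraries) and tested with the quasi-likelihood test over 5937 genes, with Benjamini-Hochberg adjustment. The biological coefficient of variation was 12.2%. A gene was called at an adjusted p under 0.05. Depth was 17038991 to 30205335 counted reads per library, and member counts ran from 125 to 35366, so counting error is largest for the lowest members and can exceed the spread of the thiolutin pair there. The standard error is the log2 fold change divided by the square root of F. Upstream sequences and motifs were read from R64, and 1 upstream sequence is not reported here. The test was run on simulated data first.

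The members, role groups and related genes were chosen with earlier results of these data known. Per-library values are given for called members whose log2 fold change was 1 or more in size, and for ATG1, ATG8, ATG9 and ATG13, and the 5 largest increases and decreases of the related genes are named. A neighbour of a member is named in the closing section where it was called with a larger change in the same direction. Neighbours of the higher ATG genes are named there wherever they were called. Other genes named were chosen after their values were seen. Alternatives were DESeq2 size factors, total counts, the Wald test of DESeq2 1.42.0, no filter, each library left out in turn, a block for replicate number and an adjusted p under 0.01. R 4.3.3, Python 3.11.15, pandas 2.3.3, numpy 2.4.6 and matplotlib 3.10.9 were used.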

Additional observations from a re-analysis of the deposited data

How the results depend on the processing

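Of the 20 ATG genes called, 14 passed in the same direction under all 9 alternative fits, and these were the 5 higher genes and 9 lower ones. On total counts, 16.3% of all genes tested were higher and 60.7% lower. There, 5 ATG genes were higher and 28 lower, and 4 related genes were higher and 38 lower. By a log2 of at least 1, 2 ATG genes were higher and 14 lower, beside 8.25% and 31.4% of all genes. On that scale the log2 fold changes of ATG19 (-0.31), ATG32 (-0.33), ATG40 (-0.34), ATG16 (-0.42) and ATG5 (-0.51) turned negative, since the scale lowers every gene by a similar amount. With 1 library left out at a time, 5 to 8 ATG genes were higher and 9 to 19 lower, and 5 to 17 related genes were higher and 11 to 28 lower, where 19.5% to 41.0% of all genes tested were higher and 14.9% to 43.3% lower. Without thiolutin replicate 2, 9 ATG genes were lower, and without untreated replicate 1, 8 were higher. ATG9, ATG13, ATG27, ATG31 and ATG22 were not called without either thiolutin library, and ATG14 not without thiolutin replicate 2. The cause was not tested. Fits without an untreated library take their spread from the close thiolutin pair alone, and fits without a thiolutin library from the untreated pair alone.

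Genes near zero changed sign with a library left out. Their log2 fold changes ranged from -0.067 to 0.24 for ATG5, -0.16 to 0.13 for ATG3, -0.14 to 0.062 for ATG12, -0.17 to 0.046 for ATG23, -0.15 to 0.013 for ATG11 and -0.20 to 0.019 for ATG26, and none of these 6 was called as reported.

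The labels give both groups the same replicate numbers. Deviations of same-numbered libraries had a correlation of 0.0254 across genes, so the numbers are not shown to pair the cultures. With the replicate number as a block, 5 ATG genes were higher and 17 lower, ATG34 (edgeR adjusted p = 0.0351) and ATG39 (0.0241) being the added ones, and 31.9% and 33.0% of all genes tested were higher and lower. At an adjusted p under 0.01, 5 ATG genes were higher and 10 lower, beside 22.6% and 21.6% of all genes. An exact permutation of 2 against 2 libraries cannot pass for any gene. ATG19 lay just short of the threshold, and the smallest change that these libraries can resolve was not computed.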

Other observations

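Of the ATG genes that passed the test, 4 lie beside a gene that fell further. GDB1, upstream of ATG13 on the same strand at a distance of 563 bases, had a log2 fold change of -2.65, against -0.38 for ATG13. CPR4, 278 bases downstream of ATG15 on the same strand, had -1.58, and SED4 on its upstream side had -0.97, against -0.84 for ATG15. RPL17B, upstream of ATG27, had -0.71 and SRO9, upstream of ATG22, had -0.95, against -0.39 for ATG27 and -0.67 for ATG22. None of the 5 higher ATG genes had a neighbour called with a larger increase, but smaller ones were called. These were YAH1 (1.51) and RPL36B (0.44) beside ATG41, FPS1 (0.77) beside ATG10, GTS1 (0.48) beside ATG1 and CLB4 (0.57) beside ATG38. SDH2 (-1.55) beside ATG10 and TUB4 (-1.04) beside ATG38 were called lower. How often genes of this rank have such neighbours was not computed. Another 8 ATG genes, which did not pass, had a neighbour that was called with a larger value of the same sign. These neighbours were PDR5 (2.07) and RPB2 (0.57) for ATG40, YPL150W (0.81) for ATG5, LRO1 (-1.48) for ATG3, and PYC2 (-1.34) and YBP1 (-0.94) for ATG12. They were also IMD3 (-0.70) for ATG23, ELP4 (-0.53) for ATG21, MMR1 (-0.56) and MDL1 (-0.53) for ATG26 and DCK1 (-0.64) for ATG17, all as log2 fold changes. The part of these neighbours in the ATG values was not tested.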
